A study of Homo sapiens with 2 samples.

Results

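The major histocompatibility region on the short arm of chromosome 6 was examined for peaks of the DNA demethylation enzyme TET1 in human cardiac progenitors, separately for its 3 gene classes. Members were the deposited TET1 peaks whose midpoint lay in fixed windows of hg19 on chromosome 6. The class I window ran from 29.69 to 31.33 Mb without the stretch from 31.10 to 31.16 Mb, the class II window from 32.36 to 33.12 Mb and the class III window from 31.36 to 32.15 Mb. The windows held 132 of the 46207 peaks on human chromosomes, of which 57 were in class I, 10 in class II and 65 in class III. Position alone assigned a peak to a class, and its width and score played no part in that; the windows themselves were set with earlier results of these data known.

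The material was H1, an established human embryonic stem cell line, whose own TET1 gene carried a V5 tag according to the series text, although the genotype entry of both libraries is wild type. Cells were grown as a monolayer in RPMI with B27 lacking insulin, received CHIR99021, which activates WNT signalling, at 6 µM up to day 2 and IWP2, which blocks it, at 5 µM between days 3 and 5, and were taken on day 7, the day on which insulin was restored. There was 1 V5 ChIP library and 1 input library, both from these cells, and the peaks are where the ChIP exceeded input. A V5 ChIP of untagged cells was not analysed here, read depth is unknown, and peaks do not measure expression, so the progenitor label could not be set against marker genes. With no replicates there is no test between classes, and the intervals below cover counting error only.

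TET1 oxidises methylated cytosine, the start of its removal, and its CXXC domain binds DNA rich in CpG, the dinucleotide that carries most methylation in human cells. Class I HLA proteins (such as HLA-B and HLA-C) show peptides made inside the cell to cytotoxic T cells. Class II HLA proteins (HLA-DRA with HLA-DRB1, and the DQ and DP pairs) show peptides taken up from outside to helper T cells and are made mainly by professional antigen-presenting cells. Class III has no HLA genes and packs together genes of complement (C4A, CFB), cytokines (TNF, LTA), heat shock (HSPA1A) and RNA, chromatin or protein quality work in most cells (DDX39B, NELFE, EHMT2, BAG6). The class I window is mixed as well, since broadly used genes such as ABCF1, TUBB and FLOT1 lie among its HLA genes, and the class II window holds the chromatin reader BRD2.

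Promoters of the region span a wide range of CpG content, and 5 of them show it. For each class the gene at the median of CpG content (observed CpG over the number that the C and G content gives; the lower of the middle pair in an even list) is shown, which was HLA-C in class I, BTNL2, a butyrophilin-like membrane protein, in class II, and ATF6B, a stress-response transcription factor, in class III. BRD2 in class II and BAG6, a protein quality-control chaperone, in class III stand for broadly used genes. Each line gives the 250 bases before the gene's start from RefSeq, 5′ to 3′ on the gene's strand, with every CpG in capitals. They are reference sequence of GRCh38.p14, whose positions do not compare with the hg19 positions of the peaks, and were HLA-C at chr6:31272093-31272342 (minus strand), BTNL2 at chr6:32407182-32407431 (minus), BRD2 at chr6:32968344-32968593 (plus), ATF6B at chr6:32128247-32128496 (minus) and BAG6 at chr6:31652662-31652911 (minus).
HLA-C: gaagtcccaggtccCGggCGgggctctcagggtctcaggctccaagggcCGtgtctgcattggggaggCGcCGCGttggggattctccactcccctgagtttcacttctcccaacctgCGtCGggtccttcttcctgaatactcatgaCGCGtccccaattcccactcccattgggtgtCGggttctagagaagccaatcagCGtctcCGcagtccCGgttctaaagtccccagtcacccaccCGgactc
BTNL2: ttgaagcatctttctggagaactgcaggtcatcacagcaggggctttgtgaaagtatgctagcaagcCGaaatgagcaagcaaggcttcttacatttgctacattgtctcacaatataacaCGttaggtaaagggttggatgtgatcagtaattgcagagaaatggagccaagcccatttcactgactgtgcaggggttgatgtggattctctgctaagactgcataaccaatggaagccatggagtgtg
BRD2: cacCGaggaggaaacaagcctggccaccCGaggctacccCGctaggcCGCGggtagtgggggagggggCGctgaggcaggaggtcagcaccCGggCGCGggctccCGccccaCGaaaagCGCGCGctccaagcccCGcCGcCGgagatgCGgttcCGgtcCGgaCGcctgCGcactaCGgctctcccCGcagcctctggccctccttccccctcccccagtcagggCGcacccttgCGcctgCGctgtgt
ATF6B: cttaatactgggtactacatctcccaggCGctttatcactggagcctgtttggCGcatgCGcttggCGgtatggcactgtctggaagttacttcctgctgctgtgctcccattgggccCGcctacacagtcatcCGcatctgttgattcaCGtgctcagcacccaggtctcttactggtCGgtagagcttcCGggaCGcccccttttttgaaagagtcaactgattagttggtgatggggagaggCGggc
BAG6: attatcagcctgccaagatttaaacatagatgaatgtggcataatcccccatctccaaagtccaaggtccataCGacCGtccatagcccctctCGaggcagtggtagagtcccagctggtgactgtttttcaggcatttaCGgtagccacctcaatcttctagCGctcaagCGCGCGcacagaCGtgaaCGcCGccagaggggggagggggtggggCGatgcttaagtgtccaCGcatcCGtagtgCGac

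In these stretches HLA-C has 15 CpG, BTNL2 has 2, BRD2 has 27, ATF6B has 11 and BAG6 has 15. BTNL2, the median of its class, has the fewest of the 5, while BRD2 from the same window has the most.

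Class III carried the most TET1 peaks per length, class I fewer and class II the fewest. Class I had 36.1 peaks per Mb (exact 95% Poisson interval 27.3 to 46.7), class II had 13.2 (6.31 to 24.2) and class III had 82.3 (63.5 to 104.9). The class I density was 0.439 times that of class III (exact interval 0.302 to 0.636). The class II density was 0.160 times that of class III (0.0733 to 0.313). Class I in turn was 2.74 times as dense as class II (1.39 to 6.02). None of the 3 intervals reached 1, although neighbouring peaks are not independent and the true error is therefore wider than the counting error.

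Class I and class III were denser than the rest of the list, and class II could not be told from it. Class I stood at 1.91 times the rest of the list (1.44 to 2.47) and 2.87 times the rest of chromosome 6 (2.16 to 3.73). Class III was 4.35 times as dense as the rest of the list (3.36 to 5.54), and 6.54 times as dense as the rest of chromosome 6 (5.03 to 8.38). The 46075 peaks outside the windows had 18.9 per Mb, and those on the rest of chromosome 6 had 12.6. For class II the ratio was 0.695 to the rest of the list (0.333 to 1.28) and 1.05 to the rest of chromosome 6 (0.501 to 1.93), so with 10 peaks a difference in either direction was not detectable. When all chromosomes were divided into tiles as long as each window, 11.5% of tiles held more peaks than class I, 31.2% more than class II and 2.40% more than class III. The median tile of those lengths held 12, 5 and 6 peaks. Unlike the densities, the tiles kept peak-free gaps of over 1 Mb, and empty tiles there lower these shares and medians.

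The share of DNA inside peaks followed the same order. Peaks covered 118 kb or 7.47% of the class I window, 23.6 kb or 3.10% of class II and 156 kb or 19.7% of class III, against 3.68% in the rest of the list. The covered share of class I was 0.379 times that of class III, which is the product of a density ratio of 0.439 and a mean width ratio of 0.864. For class II the covered share was 0.157 times that of class III, with a density ratio of 0.160 and a mean width ratio of 0.983. The covered shares therefore differed through the number of peaks far more than through their width. A single peak of 7961 bp made up 33.8% of the bases covered in class II, and without it 2.05% of that window was covered.

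**Figure D1:**
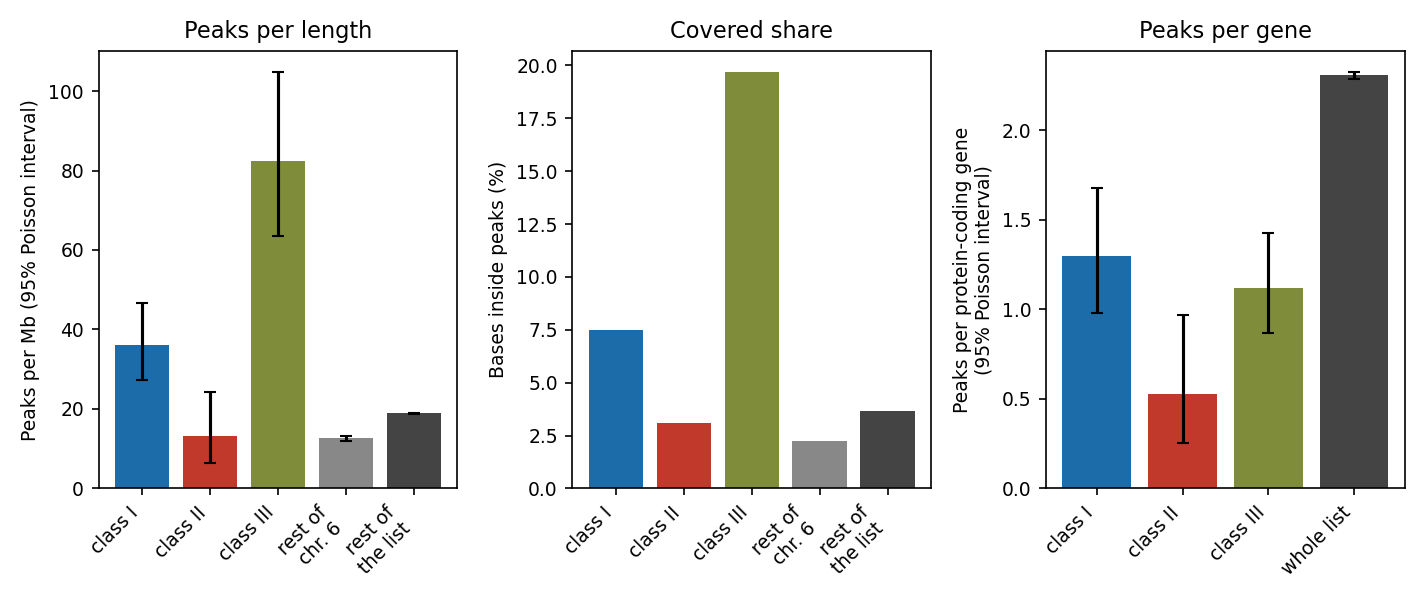
Peaks per Mb, percent of bases inside peaks and peaks per protein-coding gene in the class I, class II and class III windows, beside the rest of chromosome 6 and the rest or whole of the list. Bars are values of 1 peak list, and error bars are exact 95% Poisson intervals for counting error. Class III stands at 82.3 peaks per Mb and 19.7% covered, but at 1.12 peaks per gene it lies next to class I at 1.30.

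When peaks were set against protein-coding genes in place of length, class I and class III could no longer be told apart, and class II stayed lowest. In the gene order of GRCh38.p14 there were 44 protein-coding genes from HLA-F to HLA-B without the left-out stretch (CCHCR1 to POU5F1), 19 from BTNL2 to HLA-DPB1 and 58 from MICA to AGER. These genes were taken to stand for the windows, with no position of that build set on the peaks. Gene density was 27.8 per Mb in class I, 25 in class II and 73.4 in class III, against 8.22 over the stretches of the whole list. Class I had 1.30 peaks per gene (0.981 to 1.68), class II had 0.526 (0.252 to 0.968) and class III had 1.12 (0.865 to 1.43). Class I was 1.16 times class III by this measure (0.795 to 1.68), so a difference between them was not detectable, while class II stood at 0.470 times class III (0.215 to 0.920). With every gene type counted, pseudogenes and non-coding RNAs included, the ratio of class I to class III was 0.681 (0.469 to 0.988), on the other side of 1.

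Per protein-coding gene, all 3 classes had fewer peaks than the list as a whole. The windows hold 25 to 73.4 such genes per Mb against 8.22 for the whole list, and no comparison at like gene density was made. Relative to the whole list, class I had 0.562 times as many peaks per gene (0.425 to 0.728), class II had 0.228 times (0.109 to 0.420) and class III had 0.486 times (0.375 to 0.619). The whole list had 2.31 peaks per protein-coding gene, and the 22 autosomes ran from 1.84 on chromosome 6 to 3.80, with a median of 2.42. With every gene type counted, class I had 0.608 times as many peaks per gene as the whole list (0.461 to 0.788), class II had 0.391 times (0.188 to 0.720) and class III had 0.893 times (0.689 to 1.14). By that count class III could not be told from the list, so its lower value holds for protein-coding genes only.

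Peaks were distributed unevenly inside the windows. In 100 kb bins lying wholly inside a window, class I had 1 to 8 peaks per bin (median 3, 15 bins), class II had 0 to 4 (median 1, 7 bins) and class III had 3 to 12 (median 9, 7 bins). The bins of class I and class III thus overlapped, and the highest bin of class II lay 1 peak above the lowest of class III. Bins with 5 or more peaks numbered 3 in class I (20%, Wilson interval 7.05% to 45.2%), 0 of 7 in class II (a count of 0 allows up to 42.9%) and 6 in class III (85.7%, 48.7% to 97.4%), where 12.1% of the 24641 bins of the list had as many. Of all bins of the list, 39.4% held no peak. No bin of class I or class III was empty, and 2 of the 7 in class II were. This depended on bin size. In 50 kb bins, 13.3% of class I, 57.1% of class II and 6.67% of class III were empty.

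**Figure D2:**
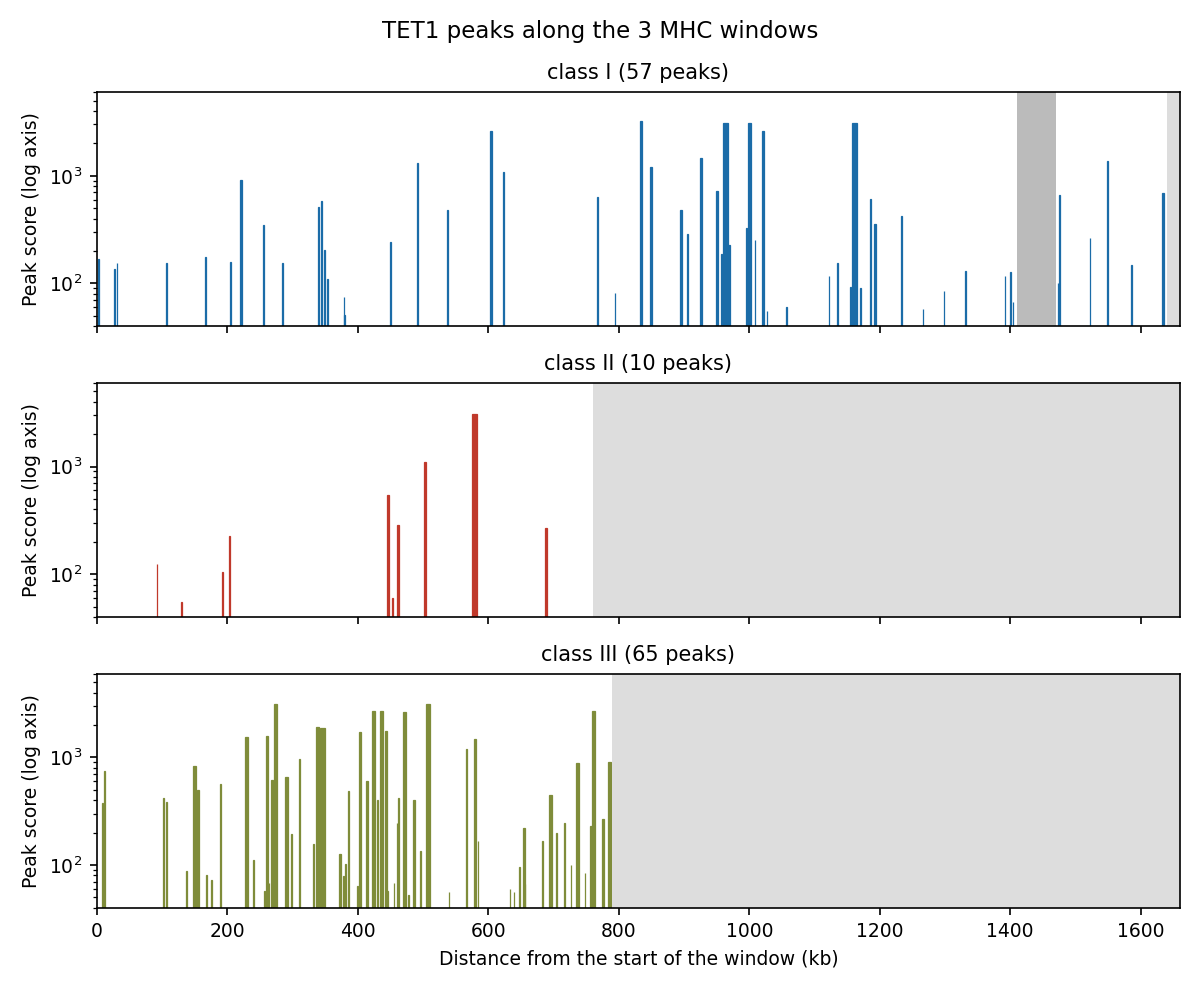
TET1 peaks along the class I, class II and class III windows, by distance from the start of each window in kb. Each bar is 1 peak, as wide as the peak and as high as its deposited score on a log axis; dark grey marks the stretch left out of class I and light grey lies beyond the window. Peaks of class I crowd between about 800 and 1200 kb, class II has a long empty stretch before its strongest peaks, and class III is filled over most of its length.

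In class I the peaks gathered in the middle of the window. The fullest bin was chromosome 6 from 30600001 to 30700000 with 8 peaks, followed by 30800001 to 30900000 with 7 and 30000001 to 30100000 with 6. The 400 kb from 30500001 to 30900000, a stretch chosen after the bins were seen, held 22 peaks or 55.0 per Mb (34.5 to 83.3) and was covered to 15.2%. The 800 kb before it held 21 peaks or 26.2 per Mb (16.2 to 40.1) and was covered to 4.46%. The 200 kb after it held 7 peaks or 35.0 per Mb (14.1 to 72.1) and was covered to 4.18%. Both of these intervals overlap that of the middle stretch. Scores of 3100 or more are treated as 1 class without an order, since 2030 peaks of the list are tied at exactly 3100 and the others lie above it. All 4 of the class I peaks in that class and all 3 that were 5 kb or wider lay in that middle stretch. In gene order, 26 of the 44 class I genes stand between HLA-E and HLA-C, and none of these is an HLA gene; since hg19 gene positions were not used, peaks were not assigned to them. The longest peak-free stretch of class I was 142 kb from 30313961 to 30456381.

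The 5 widest peaks of class I were also its 5 highest scoring. The widest ran from 30649652 to 30657445 (7794 bp) at a score of 3100. It was followed by 30848147 to 30854810 (6664 bp) and 30687296 to 30692310 (5015 bp), both also at 3100. A peak of 4259 bp from 30708815 to 30713073 scored 2601.55. The fifth, 3794 bp from 30522075 to 30525868, scored 3223.52, which is among the scores of 3100 or more that are not ordered here.

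The 10 peaks of class II fell into an early group of 4 and a later group of 6, separated by 241 kb from 32564474 to 32805294 without a peak, the longest such stretch between any neighbouring peaks from the start of class I to the end of class II. The early peaks were weak. They lay at 32451771 to 32452682 (912 bp, score 123.12), 32489152 to 32490066 (915 bp, 55.39), 32551198 to 32552737 (1540 bp, 105.85) and 32562337 to 32564473 (2137 bp, 226.12). In the later group, 3 peaks stood close together at 32805295 to 32807113 (1819 bp, 545.90), 32811616 to 32813018 (1403 bp, 59.63) and 32820434 to 32822565 (2132 bp, 288.64). The others lay at 32861224 to 32863795 (2572 bp, 1091.64), 32935365 to 32943325 (7961 bp, 3100) and 33047586 to 33049753 (2168 bp, 269.18).

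The peak of 7961 bp was the widest in any of the 3 windows, wider than 99.3% of all peaks of the list. It was the only class II peak scoring 3100 or more. The 4 early peaks scored at most 226.12, under every later peak but that at 59.63. By bins, 32800001 to 32900000 was the fullest with 4 peaks, 32400001 to 32500000 and 32500001 to 32600000 had 2 each, and the bins from 32600001 to 32800000 had 0.

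Class III was filled over most of its length. The bins from 31700001 to 31800000 and from 31800001 to 31900000 had 12 peaks each, and that from 31600001 to 31700000 had 11. These 300 kb held 35 of its 65 peaks, or 117 per Mb (81.3 to 162), and were covered to 28.8%. The lowest bin, 31400001 to 31500000 with 3 peaks, lies near the start of the window, where in gene order the class I-like stress ligands MICA and MICB stand. The longest peak-free stretch was 88.7 kb from 31372537 to 31461281, and the next was 48.4 kb from 31944783 to 31993191. Against these, the longest in class I was 142 kb and in class II 241 kb.

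Among class III peaks the widest was 7302 bp from 31701588 to 31708889, with a score of 1867.83. Next in width were 31793873 to 31799120 (5248 bp, score 2691.33), 32094364 to 32099607 (5244 bp, 878.95), 31829409 to 31834170 (4762 bp, 2621.24) and 32119350 to 32123840 (4491 bp, 2703.03). Its 3 peaks at 3100 were narrower, at 31631264 to 31635315 (4052 bp), 31867167 to 31871140 (3974 bp) and 31863841 to 31866926 (3086 bp). The last pair lie side by side, and joined across gaps of up to 1 kb they form 1 stretch of 7300 bp. Another of the 5 highest-scoring ran from 31781378 to 31785662 (4285 bp, 2697.91). Of the 5 widest class III peaks, only that of 4491 bp was among the 5 highest scoring. Joining made 10456 bp from 30649652 to 30660107 the longest stretch in class I, left every class II peak single and gave 8165 bp from 32115676 to 32123840 as the longest in class III.

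Among the 3 classes spacing followed the order of the densities, but class I peaks were not closer together than those of the whole list. The median distance from a peak to the nearest other peak was 9.61 kb in class I, 24.4 kb in class II and 5.79 kb in class III, and 7.73 kb over the whole list. Another peak lay within 10 kb for 52.6% of class I peaks (39.9% to 65.0%), 30.0% of class II peaks (10.8% to 60.3%) and 83.1% of class III peaks (72.2% to 90.3%), against 56.7% of the list. The class III share was above that of the list by more than its counting interval, while those of class I and class II included it.

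Peak width and score differed less than peak number. The median width was 1678 bp in class I (95% interval of the median 1505 to 2014), 1976 bp in class II (915 to 2572) and 2003 bp in class III (1591 to 2576), against 1530 bp in the rest of the list (1519 to 1540). The 3 class intervals overlap, and that of class III alone lies wholly above the rest of the list. Of class III peaks, 41.5% (30.4% to 53.7%) were as wide as the widest 25% of the list, against 26.3% of class I (16.7% to 39.0%) and 20% of class II (5.67% to 51.0%). Peaks of 5 kb or more numbered 3 in class I (5.26%), 1 in class II and 3 in class III (4.62%), where the whole list has 3.20%, a share inside the interval of each class.

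The median score was 242 in class I (156 to 476), 248 in class II (59.6 to 1092) and 374 in class III (168 to 493), with overlapping intervals, against 172 in the rest of the list (169 to 175). Without the first 0.15 Mb of its window the class III median was 248, at the level of class I and class II. Scores of 3100 or more were reached by 4 class I peaks (7.02%, 2.76% to 16.7%), 1 class II peak and 3 class III peaks (4.62%, 1.58% to 12.7%), against 4.69% of the whole list, which is inside each interval. Weak peaks with scores under 100 made up 17.5% of class I (9.82% to 29.4%), 20% of class II (5.67% to 51.0%) and 24.6% of class III (15.8% to 36.3%), where the whole list has 32.9%. Over the 132 peaks together the weak share was 21.2% (15.1% to 29.0%), below that of the list.

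**Figure D3:**
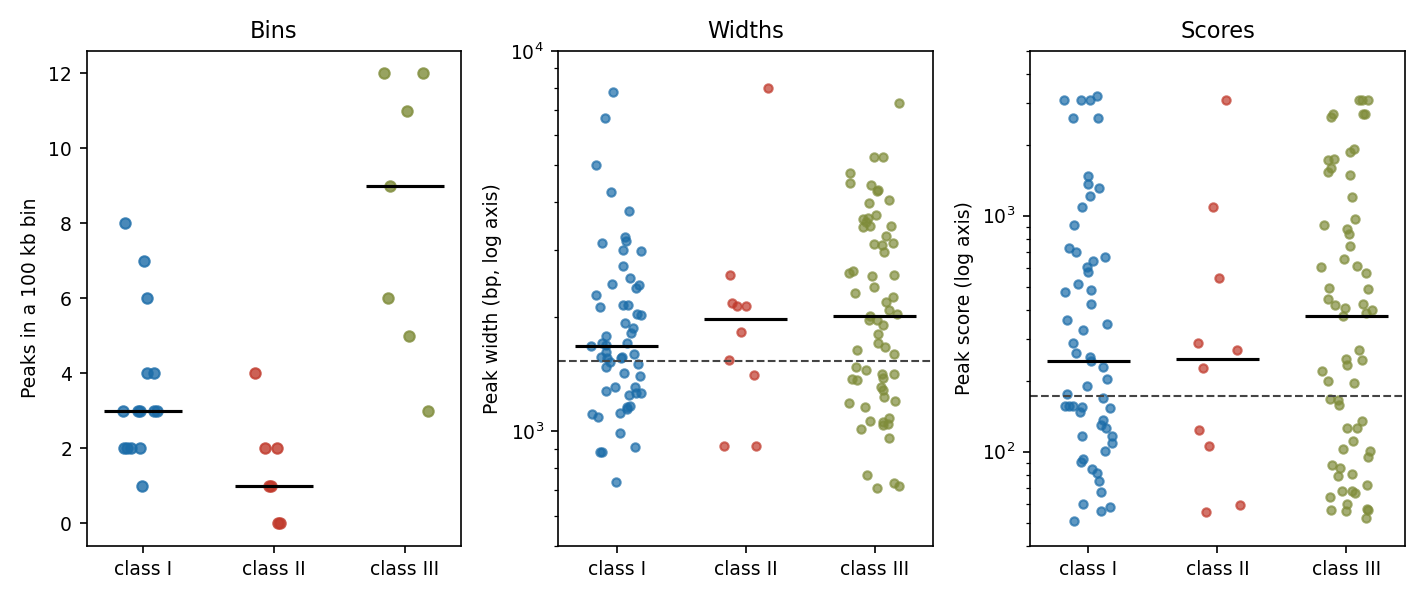
Peaks per 100 kb bin, peak widths in bp and peak scores in the class I, class II and class III windows, the last pair on log axes. Each point is 1 bin or 1 peak, black lines are class medians, and dashed lines are the medians of the rest of the list (1530 bp and a score of 172). Class III has the highest median of peaks per bin, 9, against 3 in class I and 1 in class II, and the classes overlap in all 3 panels.

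Class III had more peaks per Mb than class I in each range of score, as counted. From 50 to 100 class I had 6.33 peaks per Mb (3.04 to 11.6), class II 2.63 (0.319 to 9.51) and class III 20.3 (11.6 to 32.9). From 300 to 1000 class I had 8.86 (4.84 to 14.9), class II 1.32 (0.0333 to 7.33) and class III 22.8 (13.5 to 36.0). From 1000 to 3100 the values were 4.43 in class I (1.78 to 9.13), 1.32 in class II (0.0333 to 7.33) and 15.2 in class III (7.85 to 26.5). The classes came closest from 100 to 300, with 13.9 in class I (8.73 to 21.1), 6.58 in class II (2.14 to 15.3) and 20.3 in class III (11.6 to 32.9), and at 3100 or more, with 2.53 in class I (0.690 to 6.48) and 3.80 in class III (0.783 to 11.1). The intervals of class I and class III overlap in every range, narrowly in the first 3 given here.

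Peaks thinned out from 32200001 on, beyond the end of the class III window, and were dense again past class II. The last peak inside class III ran from 32142831 to 32147255 (score 910.65), and the first beyond it from 32153111 to 32154541 (score 161.50), 3.83 kb past the edge. The 210 kb between the class III and class II windows held 5 peaks, 23.8 per Mb (7.73 to 55.6). They were uneven, with none in the 129 kb from 32223637 to 32352424. By 100 kb bins, the stretch from 32000001 on held 9, 8, 1, 1, 2, 2, 0, 0, 4, 1 and 1 peaks up to 33100000, then 8 and 10 in the next bins. The 500 kb after class II held 38 peaks, 76.0 per Mb (53.8 to 104), and was covered to 21.3%, beside 82.3 per Mb and 19.7% in class III. The 500 kb before class I held 5 peaks, for which the interval is 3.25 to 23.3 per Mb. The choice of these flanks followed a look at the values. The 60 kb left out of class I, which surrounds the pluripotency gene POU5F1, held 4 peaks, none scoring 3100 or more. That is 66.7 per Mb, above class I as counted, with a wide interval (18.2 to 171) that includes the class I density. Peaks covered 10.6% of it.

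The promoters of the class genes were taken from the reference and not from the peaks. Their medians ran in another order than peaks per Mb, a measure per length. As counted, they ran in the order of peaks per protein-coding gene, 1.30 in class I, 1.12 in class III and 0.526 in class II. By that measure class I and class III could not be told apart. With every gene type counted, peaks per gene were 0.69 in class III and 0.47 in class I, another order. Whether promoter CpG and peak number are linked was not tested. Promoters (250 bases before to 50 after the start) were matched for 39 of 44 class I genes, 18 of 19 class II genes and 52 of 58 class III genes. The median CpG observed over expected was 0.660 in class I (0.320 to 0.808), 0.252 in class II (0.146 to 0.741) and 0.545 in class III (0.310 to 0.646). Over 15843 promoters, or 79.1% of all protein-coding genes and thus an incomplete background, it was 0.763. CpG-rich promoters, here those with a ratio of at least 0.6 and a GC content of at least 50%, made up 53.8% of class I (38.6% to 68.4%), 27.8% of class II (12.5% to 50.9%) and 38.5% of class III (26.5% to 52.0%), against 63.4% of the background. The median of class III was not above that of class I, and the intervals of the 3 classes overlap.

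Within class II most HLA promoters were poorer in CpG than most of their neighbours. The 12 matched of 13 HLA genes had a median of 0.177 (0.0714 to 0.318). HLA-DQA1 had the lowest ratio, 0.0627, and HLA-DRB1 had 0.0714; both encode antigen-presenting chains. HLA-DPA1, with 0.837, was the only CpG-rich HLA promoter of the window. The 6 other genes had a median of 0.746 (0.249 to 0.891), and the intervals of the medians overlap. BTNL2, with 0.249, lay among the HLA genes. Of the others, TAP1 and TAP2, which pump peptides into the endoplasmic reticulum, had 0.741 and 0.891. PSMB8 and PSMB9, subunits of the immunoproteasome, had 0.598 and 0.750, and BRD2 had 0.780. In class I, ABCF1, TUBB and FLOT1 had 1.05, 0.898 and 0.879, against 0.781 for HLA-B, 0.646 for HLA-F and 0.105 for HLA-G. In class III, NELFE had 0.990, BAG6 0.930, DDX39B 0.847 and EHMT2 0.755, while HSPA1A had 0.550 and TNF 0.441.

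**Figure D4:**
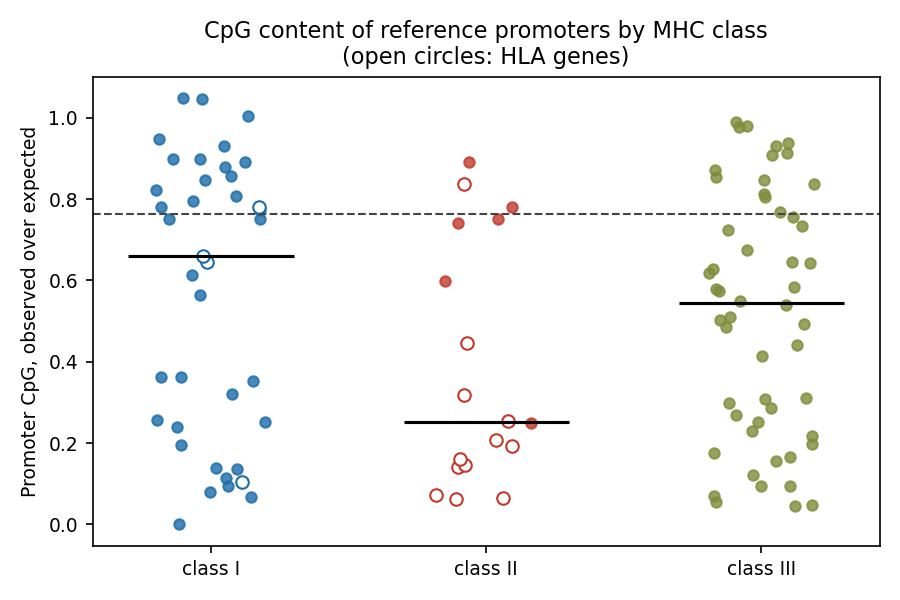
CpG content (observed over expected, no unit) of the reference promoters of class I, class II and class III genes. Each point is 1 gene, open circles are HLA genes, black lines are class medians and the dashed line is the median of 15843 promoters, 0.763. In class II the HLA genes lie at the bottom with 1 exception, and the other genes but 1 lie near 0.6 or above.

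HLA genes vary strongly between people, and C4A and C4B are near-identical copies. How reads from such sequence were placed on hg19 was not examined here.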

How the data were processed

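Reads were aligned with BWA 0.7.17 to hg19, per the submitters' processing notes. Peaks of 1 ChIP library against 1 input library were called with MACS (version not given in the sources used here), per the peak names in the deposited list. Each peak's score is a value deposited by the authors, with a scale no header states. It runs from 50, and 2030 peaks stand at exactly 3100. It serves here to describe these peaks and order them.

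Peaks were assigned by midpoint; covered bases were clipped to the windows. Densities elsewhere divide by each chromosome's length between its outermost peaks, less gaps of over 1 Mb, which the tiles keep. Counts carry exact Poisson, shares Wilson and medians order-statistic 95% intervals, for counting error only. Where a count of 0 is said to allow a share, that bound is 3 over the number counted, wider than the Wilson bound. Ratios carry exact conditional intervals. These were checked only on simulated peaks placed independently of each other, which leaves the clustering of real peaks out. Genes and promoters came from RefSeq on GRCh38.p14, by symbol and order only. Computation used scipy 1.17.1, numpy 2.4.6 and pandas 2.3.3 under Python 3.11.15.

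Windows, classes and gene lists were chosen with earlier results of these data known. In each class the 5 widest and 5 highest-scoring peaks, the 3 fullest bins and the longest peak-free stretch are named, and in class II every peak. Genes named are the ends of each class, HLA and antigen-processing genes and broadly used neighbours, of which only those needed are given; CFB, LTA and MICB were added as background.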

Additional observations from a re-analysis of the deposited data

How the results depend on the processing

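Of 78 alternative values for 20 results, 60 stayed within the counting interval of the value as reported (within 1.5 times it for covered share), 18 moved, and none of the density or covered-share ratios turned its direction. The ratio of class I to class III in peaks per gene, whose interval includes 1, was 0.681 with all gene types. Score thresholds move width and score by construction. In the upper 50% of the list by score the median width was 2152 bp in class I and 3095 bp in class III, and the median score 605 and 700.4. In the top 25% the widths were 2969 bp in class I, 5266 bp in class II and 3805 bp in class III, and the scores 1362, 2096 and 1736. Without its widest peak, an alternative chosen after seeing the data, class II was covered 0.104 times as much as class III. Near neighbours within 5 kb were found for 24.6% of class I, 0% of class II (0 of 10, which allows up to 30.0%) and 43.1% of class III peaks, and within 20 kb for 68.4% of class I and 98.5% of class III peaks. Without HLA genes the median promoter CpG ratio of class II was 0.746. The median score of class III was 247.9 without the first 0.15 Mb of its window. No paired analysis was possible because ChIP and input were sequenced as 1 library each.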
